A study of Mus musculus with 10 samples.

Results

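The genes described here encode 10 proteins that bind NOS1AP or act with it at sites of cell polarity: *Rasd1*, *Scrib*, *Cpe*, *Dlg4*, *Vangl1*, *Vangl2*, *Arhgef7*, *Git1*, *Syn1* and *Dlg1*. They were taken by gene name from the 23195 genes of the table that compares *Nos1ap* null with wild-type hearts, and all 10 names were found in it. The rule itself used no measured value. PolyA RNA was sequenced from hearts of male C57BL6/J mouse embryos at embryonic day 13.5, with 5 wild-type and 5 *Nos1ap* null libraries. The null embryos were homozygous for the tm1d allele, a constitutive deletion of exon 4 from which the *lacZ* and *neo* cassettes had also been removed. It was made from the floxed allele with a CMV-Cre transgene and is not limited to a cell type, so that the heart and every other tissue of these embryos lacked exon 4. The wild-type embryos carried 2 intact copies of the gene. The question put to these genes was whether loss of *Nos1ap* was accompanied by a change in the RNA level of the proteins that NOS1AP meets.

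NOS1AP is an adaptor protein with a phosphotyrosine-binding domain at its amino-terminal end and, at its carboxy-terminal end, a short motif that is held by the PDZ domain of neuronal nitric oxide synthase. Through the first domain it binds the small GTPase RASD1 (also called DEXRAS1) and the polarity scaffold SCRIB, and through SCRIB it is brought together with the VANGL membrane proteins and with the complex of ARHGEF7 (beta-PIX) and GIT1. Most of these contacts were described in brain or in cultured cells. They are contacts between proteins, whereas the measurement here is of RNA.

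PDZ domains, which SCRIB, DLG1 and DLG4 carry in several copies, hold the last residues of their partners. The coding ends of *Nos1ap*, *Vangl1* and *Vangl2* are shown because these short tails are the part of the 3 proteins that PDZ domains take up. Each line gives the final 30 coding bases in GENCODE M21 on GRCm38, 5′ to 3′ in the direction of transcription, with the last 4 codons before the stop codon in capitals. All 3 lie on the minus strand within a coding exon, at chr1:170318472-170318501 for *Nos1ap*, chr3:102158237-102158266 for *Vangl1* and chr1:172004602-172004631 for *Vangl2*.
Nos1ap: gacagtttggatgatGAGATCGCCGTGtag
Vangl1: cttcgcttacagtctGAGACATCAGTCtaa
Vangl2: atgcggctgcagtcgGAGACCTCTGTGtga
The capitals of all 3 genes open with the codon GAG. In these hearts, the RNA of the first gene was lower in the null libraries, and the levels of the other 2 are given below.

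The table lists the authors' mean of each group in normalized counts, that is, read pairs assigned to a gene divided by the size factor that brings libraries of different depth to one scale. For means under 1000, the 5 whole counts behind a mean can be worked out from its digits, and this gave values per library for *Rasd1*, *Dlg4*, *Vangl1*, *Vangl2*, *Syn1* and *Dlg1*. For *Rasd1* and *Syn1*, only 1 set of counts was possible. The other 4 rest on the set nearest to equal expression, so that genes with widely differing counts tend to be left without values. *Scrib*, *Cpe*, *Arhgef7* and *Git1* have means over 1000 and keep only the 2 group means. Libraries are numbered 1 to 5 within each group by descending size factor, and these numbers are not those of the sample labels. An estimated 11328000 to 14023000 read pairs per library fell on genes. Nothing in the labels says that the libraries of a group came from separate litters, and *P*-values measure the spread between these libraries.

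Cardiomyocyte markers identified the tissue, from 1688 normalized counts for *Nkx2-5* to 128162 for *Myh7* in wild type. Libraries of a group differed by more than counting noise in all 20 pairs, and 1 library in each group stood apart. The chi-square per degree of freedom of a pair was 3.54 to 4.29 with wild-type library 3 and 1.56 to 2.78 among the other wild-type libraries. It was 2.58 to 3.12 with null library 2 and 1.38 to 1.64 among the other null libraries. Wild-type library 3 held 2581 normalized counts summed over 9 neuronal markers, against 119 to 130 in the other wild-type and 115 to 132 in the null libraries. Its sum over 7 neural crest and glia markers was 803, against 345 to 424 and 334 to 387. Null library 2 was the highest in its group for 3 blood cell markers summed (*Ptprc*, *Csf1r* and *Pf4*), at 568 against 416 to 493. The wild-type libraries had 436 to 524. Several results that rest on either library are given below with and without it.

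*Nos1ap* itself had 147, 133, 126, 161 and 153 normalized counts in wild-type libraries 1 to 5. In the null libraries, it had 42.3, 42.2, 44.4, 31.1 and 39.2. The groups did not overlap, which held for 0.789% of the 10271 protein-coding genes tested. *Nos1ap* fell from 144 ± 14.4 to 39.8 ± 5.20 (SD, n = 5 each), a log2 fold change of −1.83 (SE 0.121, adjusted *P* = 6.02e-09, limma). The RNA that remained, 5.50 normalized counts per kilobase of exon against 19.9 in wild type, was read over the whole gene and not over exon 4 alone.

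No change was detected in the partner and polarity genes that could be tested. Of the 6 genes with values per library, 0 passed the test at an adjusted *P* of 0.05 (limma on log2 of the normalized count plus 1, Benjamini-Hochberg over all genes tested), and 0 had an unadjusted *P* under 0.05, also when the voom form of limma was used. Over all genes tested, 3 were called (0.0292%), namely *Nos1ap*, *Gm7694* and *Mt2*, and 3.55% had an unadjusted *P* under 0.05. With so small a share called, a count of 0 among 6 genes does not set them apart. The adjusted *P* was 0.998 for each of the 6. Their median log2 fold change was −0.02, beside a median of −0.0045 over all genes tested, of which 92.5% lay within 0.25 of zero. Without wild-type library 3, the median of the 6 was 0.01. The hearts were sequenced whole, so that fewer cells of a type and less RNA per cell cannot be told apart.

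**Figure D1:**
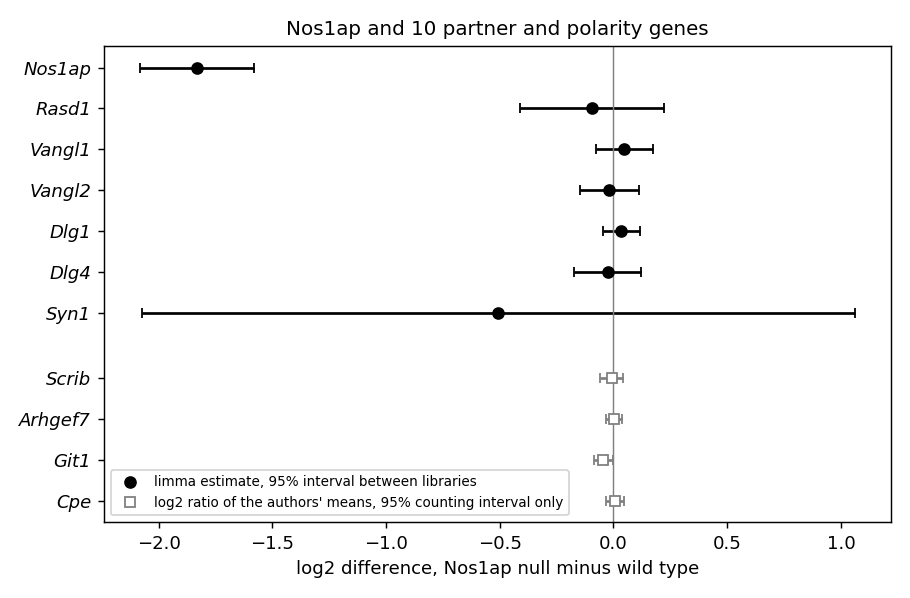
Log2 difference between *Nos1ap* null and wild-type hearts for *Nos1ap* and the 10 partner and polarity genes. Black points with bars are limma estimates with their 95% interval over 5 libraries per group, and open squares are log2 ratios of the authors' group means with a 95% interval for counting error alone. *Nos1ap* lies at −1.83 and the bars of *Rasd1*, *Vangl1*, *Vangl2*, *Dlg1*, *Dlg4* and *Syn1* all cross zero.

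*Rasd1* encodes the small GTPase that NOS1AP links to neuronal nitric oxide synthase. It lies on chromosome 11 (59963181 to 59964944, minus strand, GRCm38) and had 92.2, 84.2, 72.3, 112 and 63.1 normalized counts in wild-type libraries 1 to 5. Null libraries 1 to 5 had 91.8, 95.5, 64.5, 64.4 and 78.4. The values were spread widely in both groups, and all 5 null libraries lay within the wild-type range of 63.1 to 112. The means were 84.9 ± 19.0 and 78.9 ± 14.7 (SD, n = 5 each). The log2 fold change was −0.09 with a 95% interval from −0.41 to 0.22, so that a fall to 0.751 times the wild-type level or a rise to 1.17 times lies inside it (exact two-sided permutation test, *P* = 0.595). It was read from 60 to 109 read pairs per library.

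*Vangl1* and *Vangl2* encode the membrane proteins of the core planar cell polarity pathway, by which cells of a sheet align with their neighbors and which outflow tract development in the heart depends on. *Vangl2* (chromosome 1, 172000960 to 172028444, minus strand) had 494, 524, 536, 480 and 574 normalized counts in wild-type libraries 1 to 5 and 539, 439, 523, 530 and 545 in null libraries 1 to 5. Null library 2 was the lowest of the 10, and the other 4 null libraries lay inside the wild-type range. The log2 fold change was −0.02 (95% interval −0.15 to 0.11). The exact two-sided permutation test of its group means, 522 ± 37.0 and 515 ± 43.2 (SD, n = 5 each), gave *P* = 0.857. Without null library 2, the log2 fold change was 0.04 (adjusted *P* = 0.943, limma).

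Its paralog *Vangl1* (chromosome 3, 102153583 to 102204693, minus strand) had 507, 494, 545, 544 and 498 normalized counts in the wild-type libraries. The null libraries had 473, 562, 605, 521 and 520. The highest and the lowest of the 10 values were both null, so that the groups overlapped throughout. Means of 517 ± 24.98 and 536 ± 49.6 (SD, n = 5 each) gave a log2 fold change of 0.05 (95% interval −0.08 to 0.17, exact two-sided permutation *P* = 0.484). Per kilobase of exon, the 2 paralogs were at like levels, 72.3 for *Vangl1* and 74.6 for *Vangl2* in wild type. Their ratio per length ranged from 0.847 to 1.11 over the wild-type libraries and from 0.858 to 1.25 over the null libraries, on both sides of 1 in each group.

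*Dlg1* encodes SAP97, a membrane-associated scaffold of the SCRIB polarity module that in heart muscle also anchors ion channels. It lies on chromosome 16 (31663443 to 31875129, plus strand) and was the most precisely measured of the 6 genes. It had 914, 980, 945, 961 and 991 normalized counts in wild-type libraries 1 to 5, and 960, 975, 1023, 1020 and 930 in null libraries 1 to 5. The 2 highest values were null, and the remaining null values lay among the wild-type ones. The means were 958 ± 30.2 and 982 ± 39.9 (SD, n = 5 each). The log2 fold change was 0.03 with a 95% interval from −0.05 to 0.12, or 0.969 to 1.08 times the wild-type level (exact two-sided permutation *P* = 0.325).

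*Dlg4* encodes PSD-95, the postsynaptic scaffold that binds neuronal nitric oxide synthase through the same PDZ domain as NOS1AP does. It lies on chromosome 11 (70016942 to 70047522, plus strand). Wild-type libraries 1 to 5 had 442, 451, 501, 482 and 484 normalized counts, and null libraries 1 to 5 had 448, 385, 504, 528 and 465. The null values spread more widely (466 ± 55.2 against 472 ± 24.6, SD, n = 5 each) and surrounded the wild-type ones, with null library 2 lowest as for *Vangl2*. The log2 fold change was −0.02 (95% interval −0.17 to 0.12, exact two-sided permutation *P* = 0.865), and 0.04 without null library 2 (adjusted *P* = 0.939, limma). PSD-95 is best known from neurons. Wild-type library 3, in which neuronal markers were high, had the highest *Dlg4* value of the wild-type libraries (501). It lay below null libraries 3 (504) and 4 (528). Per kilobase of exon, *Dlg1* was 2.33 to 2.68 times the level of *Dlg4* in wild type and 2.38 to 3.13 times in null. The lengths used, 10.7 kb for *Dlg1* and 13.3 kb for *Dlg4*, join the exons of every annotated transcript. The size of this ratio therefore depends on the annotation, and which transcripts were present was not tested.

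*Syn1* encodes synapsin I, a protein on the surface of synaptic vesicles that binds NOS1AP in neurons. Of the 6 genes with values per library, it depended most on a single library. Wild-type libraries 1 to 5 had 5.22, 1.94, 78.4, 11.4 and 4.14 normalized counts, from 6, 2, 77, 11 and 4 read pairs. Null libraries 1 to 5 had 5.40, 8.04, 7.06, 4.30 and 5.45. Wild-type library 3 was far above all others, and the remaining wild-type libraries surrounded the null ones. The group means of 20.2 ± 32.7 and 6.05 ± 1.49 (SD, n = 5 each) therefore differed by less than the wild-type spread, with a log2 fold change of −0.51 (SE 0.719, 95% interval −2.07 to 1.06, exact two-sided permutation *P* = 0.579). The log2 ratio of the group means, in which library 3 weighs more, was −1.74. Without wild-type library 3, the wild-type mean was 5.66 ± 4.03 (SD, n = 4) and the log2 fold change turned to 0.25 (95% interval −0.58 to 1.07, adjusted *P* = 0.997, limma).

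**Figure D2:**
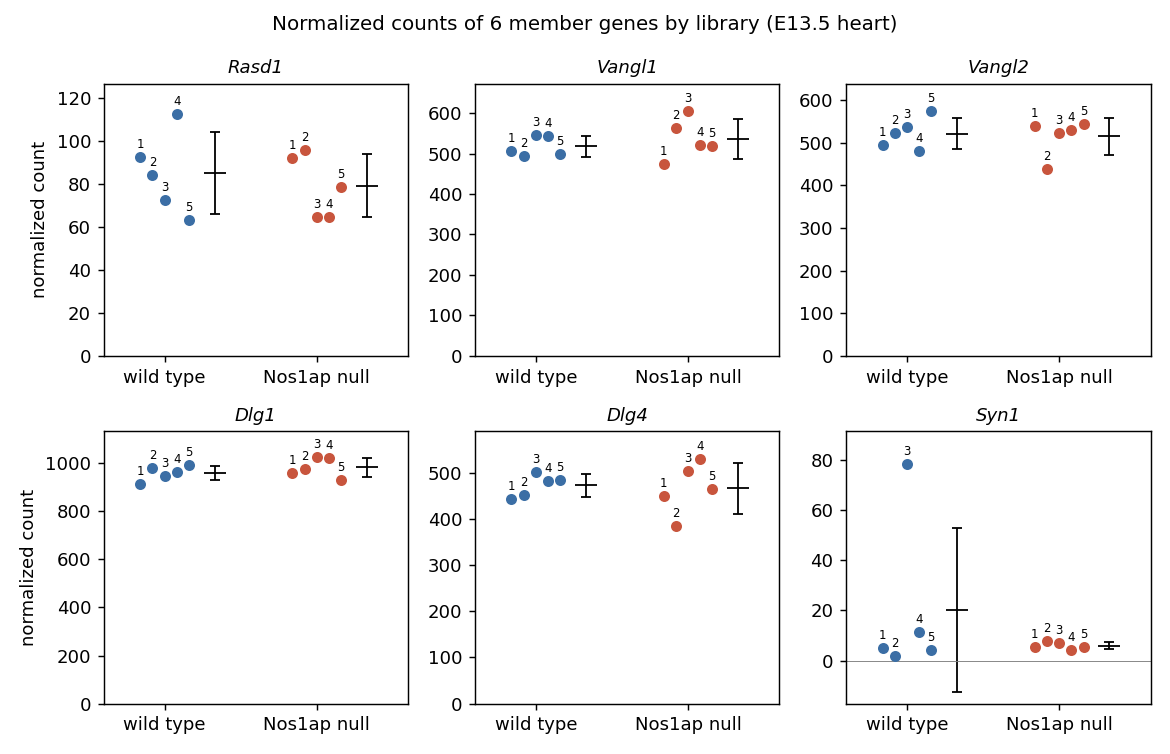
Normalized counts (vertical axes, each with its own scale) of 6 partner and polarity genes in wild-type (blue) and *Nos1ap* null (red) hearts, 1 point per library with its number, and the mean with SD as a black bar. The groups overlap in every panel, and *Syn1* reaches 78.4 in wild-type library 3 and at most 11.4 in the other 9.

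The letters before the start of *Syn1* are shown because its level went with that of neuronal markers, and *Syn1* is known as a gene held silent outside neurons by the repressor REST. RefSeq promoter sequence was matched for 6 of the 10 genes, with 14 windows in all. The line gives 164 bases before the outermost annotated start of *Syn1* (GRCm38.p6, chrX:20921005-20921168, minus strand), with 2 motifs in capitals. TTCAGCACC is the left part of the element that REST binds, and TGACGTCA is the cAMP response element. They do not overlap.
Syn1: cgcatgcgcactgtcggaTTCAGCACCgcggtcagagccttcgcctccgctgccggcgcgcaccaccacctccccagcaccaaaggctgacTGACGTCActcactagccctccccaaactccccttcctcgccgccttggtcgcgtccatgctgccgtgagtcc
The first base of TTCAGCACC lies 232 bases before the RefSeq start and that of TGACGTCA 159 bases before it. Searched on both strands, TTCAGCACC was found in 0.301% of all 32851 windows of 250 bases before a start and TGACGTCA in 1.55%, the latter also before a start of *Arhgef7*. Such a match is a description of the letters and does not show that a factor bound there.

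*Scrib*, *Arhgef7*, *Git1* and *Cpe* are described by the authors' means alone. No test was run on them here, and the authors' own DESeq test was not used. *Scrib* encodes the scaffold that joins NOS1AP to the polarity proteins (chromosome 15, 76047158 to 76069784, minus strand), and its mean was 1222 normalized counts in wild type and 1216 in null. *Arhgef7* encodes beta-PIX, an exchange factor for Rac and Cdc42 (chromosome 8, 11727721 to 11835219, plus strand), at 2580 and 2586. *Git1* encodes the GTPase-activating partner of beta-PIX (chromosome 11, 77493562 to 77507786, plus strand), at 1686 and 1635. *Cpe* encodes carboxypeptidase E, which trims peptide hormones and sorts them into secretory granules (chromosome 8, 64592542 to 64693054, minus strand), at 2184 and 2194.

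The log2 ratios of these means, null over wild type, were −0.0070 for *Scrib*, 0.0031 for *Arhgef7*, 0.0068 for *Cpe* and −0.04 for *Git1*. For *Git1*, the interval that covers counting error alone ran from −0.09 to −4.7e-05 and ended just below zero, but it leaves out the spread between libraries. In 558 tested genes with means of 800 to 1000, that spread gave a median SE of 0.0431, as large as the ratio of *Git1*. Among the 2671 protein-coding genes with means of at least 1000, the median absolute log2 ratio was 0.0294 and 90% lay within 0.0741, a range that holds all 4 genes.

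Levels can be set beside each other per kilobase of exon. Length here joins the exons of every annotated transcript, from 1.61 kb for *Rasd1* to 15.8 kb for *Arhgef7*. It can exceed the length of the RNA present, so that the order of the genes depends in part on the annotation. In normalized counts not divided by length, *Dlg4* (442 to 501 in wild type) lay above *Rasd1* (63.1 to 112), the reverse of the order below. *Cpe* was the highest, at 837 normalized counts per kilobase in wild type and 841 in null, followed by *Git1* (348 and 338), *Scrib* (189 and 188) and *Arhgef7* (164 and 164). These 4 have no values per library, so that the spread behind their order is unknown. *Dlg1* followed, from 85.2 to 92.3 over the wild-type libraries, above every wild-type value of *Vangl2* (68.7 to 82.1) and *Vangl1* (69.0 to 76.1), which overlapped. *Rasd1* ranged from 39.2 to 69.8 and overlapped with both *Vangl* genes at its upper end. *Dlg4*, at 33.4 to 37.8, lay below every wild-type value of *Rasd1*, whereas in null its 29.1 to 39.9 and the 40.0 to 59.3 of *Rasd1* came close to meeting. *Nos1ap* ranged from 17.4 to 22.2 in wild type, below all of these. *Syn1* had the lowest mean and ranged from 0.587 to 23.8 in wild type, where library 3 alone lay above *Nos1ap*, and from 1.30 to 2.44 in null. Its median over libraries was 1.58 (wild type) and 1.65 (null).

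**Figure D3:**
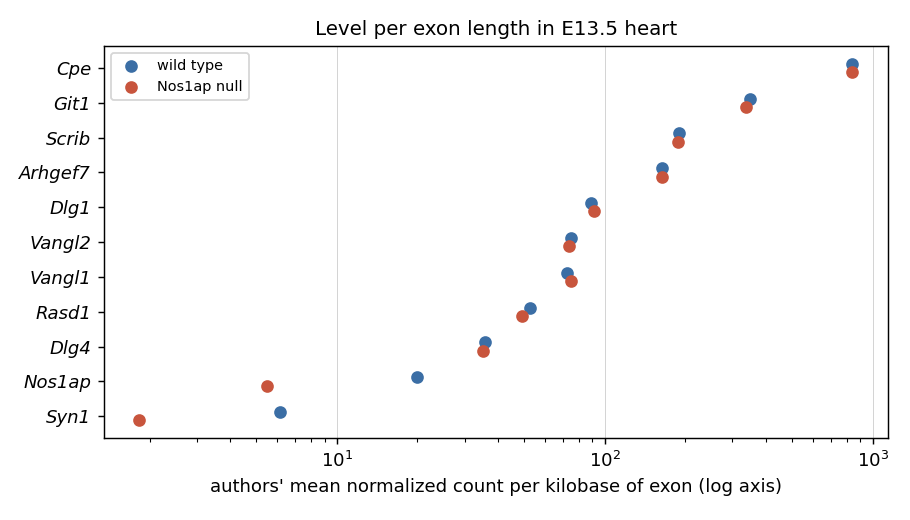
Authors' mean normalized count per kilobase of exon (horizontal log axis) of *Nos1ap* and the 10 partner and polarity genes in wild type (blue) and *Nos1ap* null (red), ordered by the wild-type mean. The order runs from *Cpe* (837 in wild type) to *Syn1* (6.12 in wild type, a mean that wild-type library 3 raises), and the order in null differs from that in wild type only in the places of *Vangl1* and *Vangl2*. Exon length joins the exons of all annotated transcripts, so that the order depends in part on the annotation.

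Further genes of the same pathways were read from 6 lists, 97 gene names in all. Of these, 95 were in the table, 51 were tested, and 0 of these were called in either direction or had an unadjusted *P* under 0.05 by limma or by its voom form. Their median log2 fold change was 0.0026, with 27 above and 24 below zero. Without wild-type library 3, 0 of the 51 were called and 1 had an unadjusted *P* under 0.05 (limma), beside 340 of all 10271 genes tested. The median was then 0.02, with 31 above and 20 below zero. Another 25 had a mean of at least 10 but no values per library, and the log2 ratios of their means ran from −0.07 (*Ror1*, a Wnt5a receptor) to 0.09 (*Erbb2ip*, a basolateral scaffold of the SCRIB family). The other 19 fell under a mean of 10 and were not tested.

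The planar cell polarity list, which holds the Celsr, Frizzled, Prickle and Dishevelled families, had 15 of 25 genes tested, with a median log2 fold change of 0.01. Its ends were *Celsr3*, an atypical cadherin of developing neurons, at −0.59 (SE 1.02) and *Fzd6*, a Frizzled receptor, at 0.12 (SE 0.103). *Celsr3* had 142 read pairs in wild-type library 3 and 2 to 9 in each other library, and without that library its log2 fold change was 0.43 (95% interval −0.49 to 1.36). The apicobasal polarity list, with the PAR, Crumbs and LGL proteins, had 16 of 23 genes tested, a median of 0.0064, and ends at *Prkcz*, the zeta form of atypical protein kinase C (−0.18, SE 0.118), and *Crb1*, a Crumbs protein (0.16, SE 0.221). *Prkcz* had 115 read pairs in wild-type library 3 and 64 to 106 elsewhere, and its log2 fold change was −0.09 without that library.

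Beside *Arhgef7* and *Git1*, the list of PIX, GIT and PAK signalling had 6 of 12 genes tested, with a median log2 fold change of −0.0045. It ran from *Pak3*, a kinase activated by Rac and Cdc42 (−0.09, SE 0.110), to *Arhgef6*, the alpha-PIX paralog of *Arhgef7* (0.06, SE 0.0746). Among the NOS1 and PSD-95 scaffold genes, 4 of 13 were tested, from *Grin2a*, an NMDA receptor subunit (−0.27, SE 0.256), to *Kcnj2*, the channel of the inward rectifier current in cardiomyocytes (0.08, SE 0.135). The synthase *Nos1* itself fell under the limit for testing, with 20 read pairs in wild-type library 3 and 2 to 7 in each of the others.

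Of the paralogs of the members, 7 of 11 were tested, from *Syn2*, a second synapsin (−0.46, SE 0.312), to *Cpz*, a carboxypeptidase of the *Cpe* family (0.20, SE 0.176). *Syn2* had 67 read pairs in wild-type library 3 and 12 to 25 elsewhere, and its log2 fold change was −0.11 without that library. In the list of neuropeptide processing and synaptic vesicle genes, 5 of 13 were tested, with a median log2 fold change of −0.46. It ran from *Snap25*, a fusion protein of nerve terminals (−0.93, SE 0.833), to *Sv2a*, a vesicle glycoprotein (0.08, SE 0.0527). Without wild-type library 3, the median of this list was −0.06, and *Snap25* was at −0.06 (95% interval −0.85 to 0.73).

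**Figure D4:**
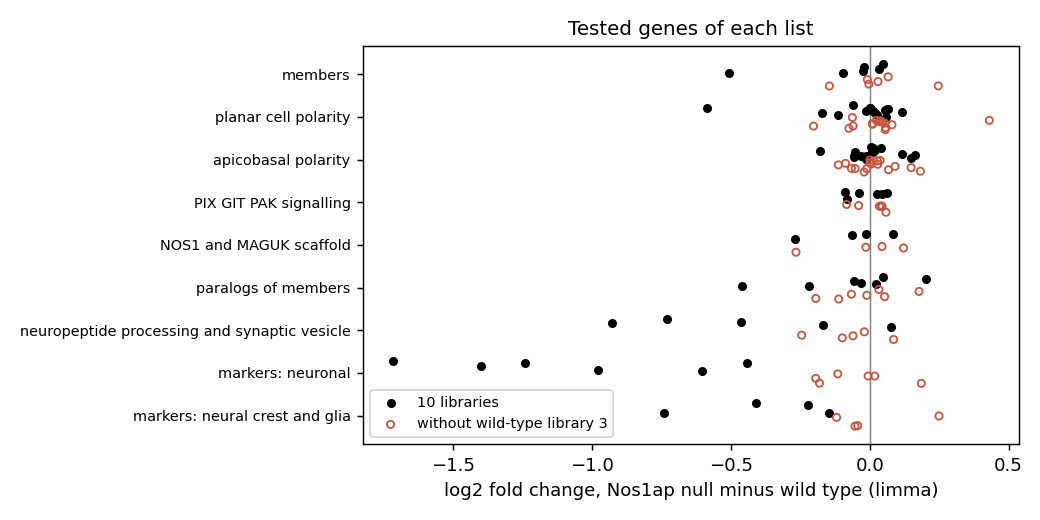
Log2 fold change (horizontal axis, limma, *Nos1ap* null minus wild type) of each tested gene of the lists, 1 row per list, with all 10 libraries (black) and without wild-type library 3 (open red). With all libraries, neuronal markers reach −1.72 and *Snap25* −0.93, and without that library the neuronal median is −0.06.

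The libraries were then compared gene by gene. Wild-type library 3 was the highest of the 10 for 15.6% of all genes tested. It was the highest for 1 of the 6 members with counts, *Syn1*, and for 11 of 12 genes with counts in the neuropeptide and synaptic list. Of the neuronal markers, 9 of 9 were highest there, of the neural crest and glia markers 6 of 7, and of the epithelial markers also 6 of 7, most of these at low counts. *Epcam* had 13 read pairs there against 0 to 6, *Cdh1* had 16 against 1 to 4, and *Trp63* had 11 against 2 to 6. The more abundant *Krt8* and *Krt18* hardly stood out, with 161 and 229 normalized counts there against 112 to 159 and 205 to 250 in the other libraries. *Syp*, the vesicle protein synaptophysin, had 139 read pairs in this library and 6 to 17 in each of the others, and *Pcsk2*, a prohormone convertase that acts before CPE, had 34 against 0 to 1. *Vangl1*, *Vangl2*, *Dlg1*, *Dlg4* and *Rasd1* lay within the range of the other 9 libraries in it. The neuronal and glial transcripts, and epithelial ones of low count, moved with *Syn1*, *Celsr3*, *Syn2* and *Snap25*. Their part in these values was not tested.

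**Figure D5:**
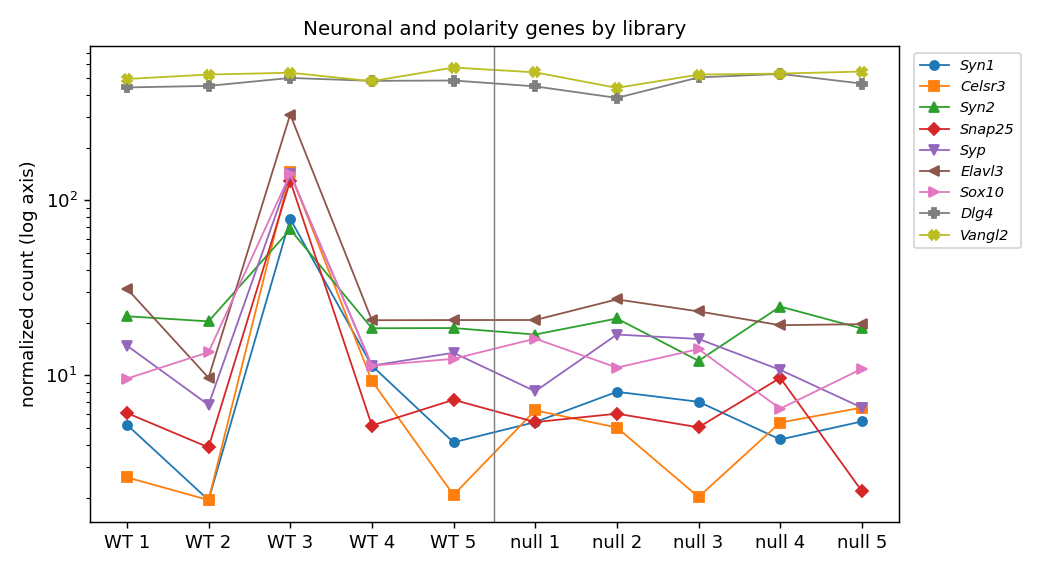
Normalized counts (vertical log axis) of 7 neuronal and glial genes and of *Dlg4* and *Vangl2* in each of the 10 libraries (horizontal axis, lines join the values of a gene for reading only). *Syn1*, *Celsr3*, *Syn2*, *Snap25*, *Syp*, *Elavl3* and *Sox10* peak in wild-type library 3, whereas *Dlg4* and *Vangl2* do not.

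The genes most like each member over the 10 libraries were listed by Pearson's *r* of log2 values, with each group centred at its mean. They were *Ap1s3* for *Rasd1* (*r* = 0.944), *Ulk2* for *Dlg4* (0.959), *Apoc1* for *Vangl1* (0.901), *Ndnf* for *Vangl2* (0.961) and *Fam3c* for *Dlg1* (0.940). The second in rank were *Disp1* (0.935), *Zmynd15* (0.952), *Casp8ap2* (0.879), *Galnt16* (0.951) and *Tsen15* (0.938), in the same order. For *Syn1*, they were *Tmem151b* (0.981) and *Snph* (0.978), which stood at 0.916 and 0.880 without wild-type library 3. Each is the top of 10271 genes over 10 libraries that share size factors, and is given as a description.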

How the data were processed

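PolyA RNA-seq of 5 wild-type and 5 *Nos1ap* null hearts was analysed, grouped by the genotype in the sample labels. Per the submitters' processing notes and the study's methods, stranded libraries were sequenced in pairs, trimmed with Trimmomatic 0.36, aligned by STAR within RSEM 1.2.31 to GENCODE M10 transcripts on GRCm38, and compared with DESeq 1.24.0. RSEM can divide reads between similar genes. The signal values the authors deposited are group means of normalized counts (counts divided by size factors). The authors also deposited the ratio of both means (fold change), its log2 value, and the p-value and adjusted p-value of their DESeq test, none of which was used.

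Whole counts per library were recovered for 98.6% of wild-type and 99.0% of null means under 1000, by a lattice search tested on simulated data. Below 200 a set was taken where it was the only one, otherwise where at most 0.01 sets were expected as near to equal expression by chance. Of 13299 protein-coding genes with a mean of at least 10, 10271 (77.2%) had counts in both groups, and 357 with means under 1000 had none.

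These were tested with limma 3.58.1 (R 4.3.3) on log2 of the normalized count plus 1, which understates changes of low genes, with a trended, robust prior and calls at an adjusted *P* of 0.05. No count model was fitted. Single genes were compared by an exact permutation test over 252 arrangements, for which the smallest *P* is 0.00794. Intervals for group means without recovered counts cover counting error only. Exon lengths and coordinates are from GENCODE M21, and the length of a gene joins the exons of all its annotated transcripts. Alternatives changed the pseudocount (0.5), filter, weights (voom), scaling, sets of counts, genes adjusted over, thresholds and libraries. Runs with a library left out kept the genes that passed the limit on the mean with all 10 libraries.

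The members and lists were chosen with earlier results of these data known. Named genes are the members, *Nos1ap*, from each list the called genes and the 2 at the ends of the tested range, and the 2 genes most correlated with each member. *Syp*, *Pcsk2*, *Nos1*, *Ror1*, *Erbb2ip*, *Elavl3*, *Sox10*, *Nefm*, *Nefl* and *Wt1* were chosen after their values were seen. Markers of other cell types with values per library were summed, over 3 epicardial and 7 epithelium genes but only 1 endothelial and 1 mesenchymal gene. The ranges (null against wild type) were 639.5 to 715.8 against 608.3 to 716.8 (endothelial) and 981.0 to 1114.7 against 865.9 to 1008.7 (epicardial). They were 341.9 to 435.5 against 330.1 to 486.2 (mesenchymal) and 337.5 to 403.2 against 331.1 to 438.7 (epithelium). Over all 6 endothelial, 6 epicardial and 6 mesenchymal markers, the log2 ratios of the authors' means ran from −0.03 to 0.14, −0.07 to 0.18 and −0.10 to 0.04. Blood cell markers are given without 1 gene that is not reported here. *Ptprc*, *Csf1r* and *Pf4* summed to 415.8 to 568.1 in null against 435.5 to 523.7, and the log2 ratio of the authors' means was 0.44 for *Hba-a1*, 0.40 for *Alas2* and 0.20 for *Hbb-bt*. These 3 and *Epcam*, *Cdh1*, *Trp63*, *Krt8* and *Krt18* were also named after their values were seen.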

Additional observations from a re-analysis of the deposited data

Results flagged for a closer look

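Each group of 5 values was examined for 1 library far from the rest, by the gap to the nearest value as a share of the whole range (Dixon's limit for 5 is 0.71). Of 52 groups, 10 passed, and chance passes about 1 in 20 where groups are not chosen by their values. Several genes here were chosen as the ends of their lists, which 1 outlying library can produce. The 10 can therefore not be set against that rate. In wild-type library 3, this share was 0.877 for *Syn1* (78.4 normalized counts), 0.948 for *Celsr3* (145), 0.936 for *Syn2* (68.2), 0.973 for *Snap25* (129), 0.995 for the summed neuronal markers (2581) and 0.828 for the neural crest and glia markers (803). These 6 are not independent, since they come from 1 library. Null library 2 was lowest for *Vangl2* (439, share 0.797). Wild-type library 2 was highest for *Kcnj2* (374, share 0.726). Null library 4 was highest for *Grin2a* (24.7, share 0.715) and for the summed epicardial markers (1115, share 0.713).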

How the results depend on the processing

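Of the 6 partner and polarity genes that could be tested, 0 were called under any alternative run, and 0 genes of the pathway lists. *Nos1ap* stayed called, from −1.88 to −1.75 with each library left out. The median log2 fold change of the members moved from −0.02 to −0.30 when only sets of counts that are the only one possible were used, which left *Rasd1* and *Syn1*. With each library left out, this median ran from −0.043 to 0.033 and the number of genes called from 3 to 4, and the direction turned for 4 members. *Rasd1* ran from −0.19 to 0.013 (turned without wild-type library 4), *Dlg4* from −0.072 to 0.042 (without null library 2), *Vangl2* from −0.048 to 0.037 (without null library 2, and at 0.016 without wild-type library 5) and *Syn1* from −0.94 to 0.25 (without wild-type library 3), beside −1.74 as the log2 ratio of the authors' means. None of these 4 was called before or after. Over all alternatives, the adjusted *P* of the members (limma) lay between 0.896 and 1.00. The remaining 178 values kept their direction and their side of the threshold, or stayed within the spread or the count limit. No paired analysis was possible because the group means carry no replicate numbers and the recovered libraries cannot be tied to those of the labels. *Scrib*, *Cpe*, *Arhgef7* and *Git1* have no error between libraries. The SE of *Syn1* was 0.719, and 0.399 without wild-type library 3.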

Other observations

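Among the epicardial markers, the level of *Wt1* was 508 ± 50.9 (wild type) and 574 ± 37.5 (null) normalized counts (SD, n = 5 each), with a log2 fold change of 0.18 with an adjusted *P* of 0.998 (limma). Neuronal markers without values per library included *Nefm*, with means of 311 in wild type and 17.9 in null, and *Nefl*, with 221 and 31.1. All 9 neuronal markers with values per library were highest in wild-type library 3, and without it the median log2 fold change of those tested was −0.06. For *Nefm* and *Nefl*, the part of that library in the means is unknown, and a difference between genotypes was not tested. Means of blood cell markers were higher in null for *Hba-a1* (63411 against 46645), *Alas2* (1917 against 1452) and *Hbb-bt* (14949 against 12997), with no error between libraries. *Pf4*, a platelet gene, had a log2 fold change of 0.39 (95% interval −0.24 to 1.03, adjusted *P* = 0.998, limma), and of 0.59 without wild-type library 3.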
